A study of Homo sapiens with 4 samples.

Results

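The E2F transcription factors and the RB (retinoblastoma) proteins form the switch that a cell passes when it commits to DNA replication, and their transcripts were followed here through 3 siRNA knockdowns in a bladder cancer cell line. The symbols were taken by name, as E2F1, E2F2, E2F3, E2F4, E2F5, E2F7, E2F8, RB1, RBL1 and RBL2, by a rule that uses no measured value. The set itself was chosen with earlier results of these data known. All 10 were found by their Ensembl identifiers in each of the 4 deposited tables, among 27629 genes listed in at least one table. All 10 also passed the filter of 1 CPM (the reads of a gene, scaled so that libraries of unlike depth can be set side by side) used for the comparisons.

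The cell line was UM-UC-3, derived from a human bladder cancer and long established, transfected with 75 nM siRNA. There was 1 library each for a negative control siRNA, si-hnRNPK (a mixture of 2 siRNAs against HNRNPK, which encodes an RNA- and DNA-binding protein), si-lncRNA-LBCS (2 siRNAs against a long non-coding RNA) and si-PTBP1 (2 siRNAs against the splicing regulator PTBP1). RNA was taken 48 h after transfection in the control and si-hnRNPK cells, and the sources used here give no time for the other 2 knockdowns. No untreated culture was analysed, the knockdowns are transient, and every condition is a single library of a single line, so no replicate error exists and no comparison carries a p-value.

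E2F proteins bind DNA and switch genes for DNA synthesis and mitosis on or off. E2F1, E2F2 and E2F3 are mainly activators, E2F4 and E2F5 act mainly as repressors together with the RB-related proteins p107 (RBL1) and p130 (RBL2), and E2F7 and E2F8 are atypical repressors that bind DNA without a DP partner. In resting cells RB1, RBL1 and RBL2 hold the E2F proteins in check, and cyclin-dependent kinases release them by phosphorylating the RB proteins.

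The reads on listed genes ranged from 54301152 in the si-hnRNPK library to 70232674 in the one with si-lncRNA-LBCS on its label. Within 0.1 read, each gene's CPM stood for a whole number of reads in 100% of genes with reads, so reads could be recovered, and 3 reads correspond to 0.0427 to 0.0552 CPM. HNRNPK was at 783.1 CPM in the control and 187.8 CPM in the si-hnRNPK library, and PTBP1 at 280.0 CPM in the control and 89.7 CPM in the si-PTBP1 library. The target of the third knockdown (ENSG00000228412) was at 1.79 CPM in the control and 1.47 CPM in the library that carries its label. It was at 3.43 CPM in si-hnRNPK and 3.82 CPM in si-PTBP1. No counting interval was computed for it, and no lowering is read from these low levels. The library with its label is therefore called the LBCS-labelled library throughout. Of 13 urothelial and epithelial markers, 4 reached 1 CPM in every library (KRT7, KRT8, KRT18 and PPARG), while the 4 mesenchymal markers all did. Of the markers of white blood cells and endothelium, the listed ones stayed at or below 0.129 CPM.

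The promoters of E2F1, E2F2, RBL1 and E2F7 are shown because E2F genes are themselves known as E2F targets, and because these 4 genes differ in the matches they hold while 2 of them, E2F2 and E2F7, were called lower in the si-hnRNPK library. Each line gives the 250 bases before the RefSeq start of the gene, 5′ to 3′ on the gene's strand, in the GRCh38.p14 build. E2F1 is on the minus strand at chr20:33686386-33686635, E2F2 on the minus strand at chr1:23531234-23531483, RBL1 on the minus strand at chr20:37095998-37096247 and E2F7 on the minus strand at chr12:77065570-77065819. Capitals mark matches to 4 E2F core motifs, TTTCCCGC, TTTGGCGC, TTTGCCGC and TTTCGCGC, searched on both strands.
E2F1: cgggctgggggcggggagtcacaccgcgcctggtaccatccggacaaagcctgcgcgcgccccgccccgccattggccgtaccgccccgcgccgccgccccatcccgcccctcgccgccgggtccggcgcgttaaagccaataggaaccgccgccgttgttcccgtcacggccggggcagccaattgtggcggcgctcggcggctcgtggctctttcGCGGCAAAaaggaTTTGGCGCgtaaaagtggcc
E2F2: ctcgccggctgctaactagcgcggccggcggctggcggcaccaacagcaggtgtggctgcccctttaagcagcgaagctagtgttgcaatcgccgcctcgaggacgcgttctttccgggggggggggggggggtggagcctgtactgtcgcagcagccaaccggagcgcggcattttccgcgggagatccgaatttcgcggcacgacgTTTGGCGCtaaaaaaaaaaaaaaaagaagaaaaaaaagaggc
RBL1: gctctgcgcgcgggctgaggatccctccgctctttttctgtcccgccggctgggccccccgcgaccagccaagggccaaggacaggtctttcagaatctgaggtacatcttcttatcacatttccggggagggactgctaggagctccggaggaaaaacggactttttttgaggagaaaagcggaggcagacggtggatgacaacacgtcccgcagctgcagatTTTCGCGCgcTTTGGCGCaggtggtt
E2F7: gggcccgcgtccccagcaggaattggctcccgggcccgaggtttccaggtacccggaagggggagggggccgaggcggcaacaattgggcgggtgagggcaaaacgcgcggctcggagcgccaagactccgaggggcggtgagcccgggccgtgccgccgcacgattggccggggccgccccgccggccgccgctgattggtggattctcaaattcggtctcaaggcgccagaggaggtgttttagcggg

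In the whole windows of 300 bases (250 before to 50 after the start), E2F1 held 2 core matches, whose first bases lie at −33 and −20 from the start. RBL1 held 2, at −26 and −16, and E2F2 held 1, at −42. E2F3 held 1, at −53. E2F4, E2F7 and RBL2 held none of the 4 motifs. E2F3 and RBL2 have 2 windows each, so 4 of 9 member windows had a match, against 3.31% of the 35116 windows in the RefSeq table. CCAAT, searched on both strands, was in 34.6% of all windows and occurred 4 times each in an E2F3 and the E2F7 window, 3 times in that of E2F1 and once in one of RBL2. GGGCGG was in 45.0% and the CHR motif (TTTGAA or TTTAAA) in 24.0% of all windows. These are matches of letters only. E2F5 and E2F8 are not in that table. The RB1 window, which held no core match, was left out because it lies far inside the gene, 172724 bases from the annotated start. Such windows were not removed from the 35116. Both RBL2 windows and 1 E2F3 window were kept. Their RefSeq starts lie inside the annotated gene too, by 494, 1642 and 1708 bases.

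In the control library the levels per length, in CPM per kb of merged exons, ran from 30.0 for E2F4, which acts with p107 and p130, to 2.56 for E2F5. Between them came RB1 at 21.7, E2F1 at 14.8, RBL1 at 13.5, E2F2 at 8.06, RBL2 at 7.86, E2F3 at 6.41, E2F7 at 6.08 and E2F8 at 4.18. Of the 9 neighbouring pairs in this order, E2F2 with RBL2 and E2F3 with E2F7 had 95% exact Poisson intervals that overlapped, and the other 7 pairs did not overlap. All these intervals cover counting error only. In the si-PTBP1 library the lead passed to RB1, at 23.7 CPM per kb against 22.3 for E2F4, whereas E2F4 led in the other 3 libraries.

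**Figure D1:**
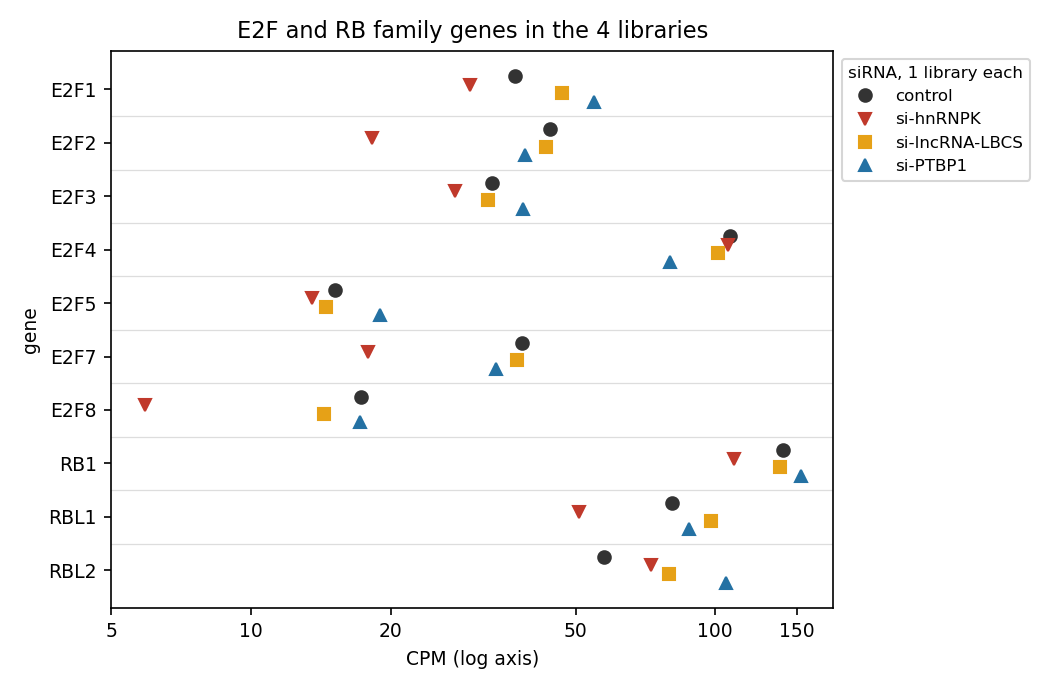
CPM (log axis) of the 10 genes, 1 point for each of the 4 libraries. The si-hnRNPK points of E2F2, E2F7 and E2F8 lie far to the left of the other 3 libraries, at 18.2, 17.9 and 5.91 CPM, and the si-PTBP1 point of RBL2 lies to the right, at 105.3 CPM.

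Across the 4 libraries, si-hnRNPK was the lowest for 8 of the 10 genes and the highest for none. The exceptions were E2F4, lowest in si-PTBP1, and RBL2, lowest in the control. With the median-of-ratios scaling described below, E2F5 was lowest in the LBCS-labelled library, with a change of −0.052 against −0.046 in si-hnRNPK. The share of all genes lowest in si-hnRNPK was not computed, and 58.4% of all genes compared there were below the control. Called here means a change of at least 1 on the log2(CPM + 1) scale, that is 2-fold. By this measure 3 of the 10 genes were lower in the si-hnRNPK library than in the control and none higher, against 3.93% lower and 3.55% higher among all 13672 genes compared. At 1.5-fold, 4 genes were lower and none higher, against 15.8% and 9.89% of all genes. The median change of the 10 genes was −0.33, beside −0.11 over all genes. In bulk RNA, fewer cells in a phase of the cell cycle and less RNA per cell cannot be told apart.

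In the LBCS-labelled library no member was called in either direction at 2-fold or at 1.5-fold. Among all 13492 genes compared, 0.378% were called higher and 1.01% lower at 2-fold, and 4.14% and 5.74% at 1.5-fold. The median change of the 10 genes there was −0.03, against −0.01 over all genes. In the si-PTBP1 library none was called at 2-fold and 1, RBL2, was higher at 1.5-fold. Of the 13855 genes compared there, 2.92% were higher and 0.613% lower at 2-fold, and 12.1% and 3.12% at 1.5-fold. The median change of the 10 genes was 0.12, equal to 0.12 over all genes. The 3 comparisons share the control library. A median-of-ratios scaling, which sets the libraries level over all well-covered genes, has log2 size factors of −0.11 for si-hnRNPK and 0.13 for si-PTBP1 relative to the control, so that it moves changes upward in si-hnRNPK and downward in si-PTBP1 by about these amounts, and signs that turn under it are named beside the gene.

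**Figure D2:**
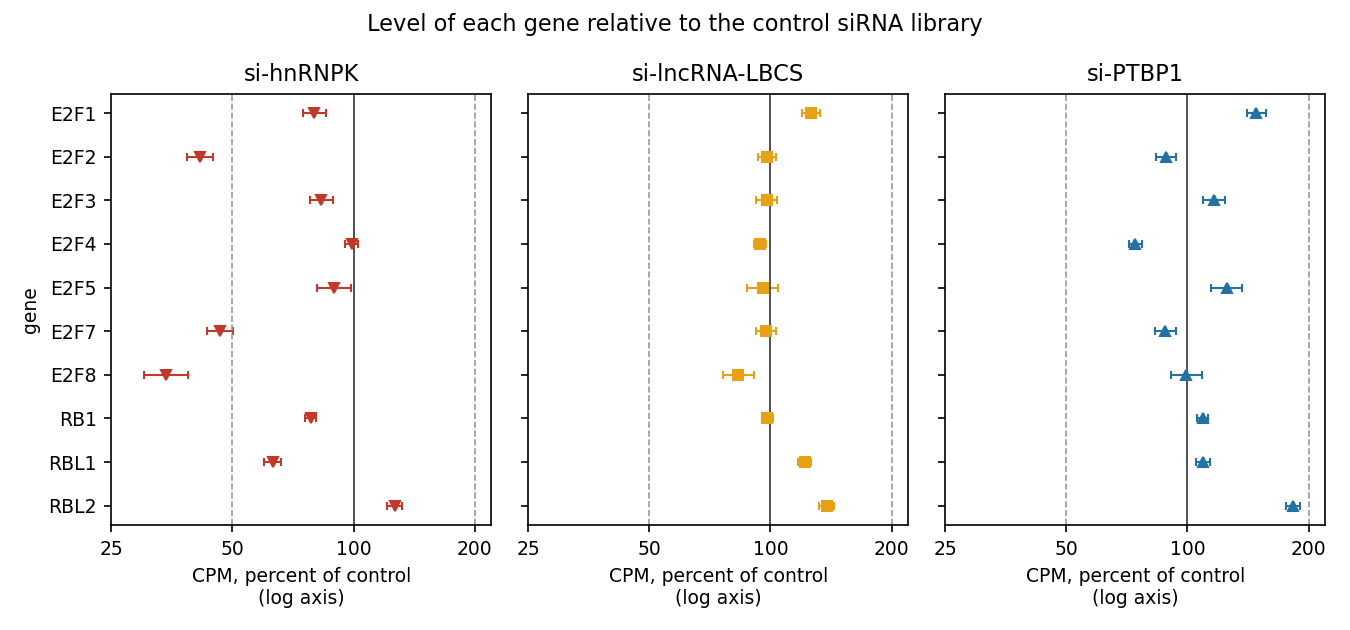
Level of each gene in the 3 knockdown libraries as percent of its CPM in the control (log axis), with 95% exact Clopper-Pearson intervals of the recovered reads as bars, a solid line at equality and dashed lines at 50 and 200 percent. E2F2, E2F7 and E2F8 lie left of the dashed line at 50 in si-hnRNPK, at 41.5, 46.6 and 34.2 percent, and RBL2 is the farthest to the right in si-PTBP1, at 182.9 percent.

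Among the activators, E2F2 was the gene that differed most. It was at 44.0 CPM in the control, 18.2 CPM in si-hnRNPK, 43.2 CPM in the LBCS-labelled library and 38.8 CPM in si-PTBP1. The 3 other libraries lay close together and si-hnRNPK far below them, at 41.5% of the control (interval 38.5 to 44.6%, from 991 and 2700 reads). The change was −1.22 on the log2(CPM + 1) scale, and 98.4% of all genes compared had a higher value. Against the geometric mean of the other 3 libraries it was −1.16.

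E2F1, the founding activator, which can also drive cell death, was at 37.1 CPM in the control, 29.6 CPM in si-hnRNPK, 46.7 CPM in the LBCS-labelled library and 54.9 CPM in si-PTBP1. Its levels were therefore spread on both sides of the control. They were 80.0% of the control (75.0 to 85.3%) in si-hnRNPK, 126.1% (119.5 to 133.1%) in the LBCS-labelled library and 148.3% (140.4 to 156.6%) in si-PTBP1, all under 1.5-fold on the log2(CPM + 1) scale. E2F3, the third activator, was at 33.1, 27.5, 32.4 and 38.5 CPM in the same order of libraries. It moved less than E2F2 in si-hnRNPK, with a change of −0.26, and reached 116.4% of the control (109.5 to 123.7%) in si-PTBP1.

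Within each library the ratio of E2F2 to E2F1 per length does not depend on the scaling of the library. It was 0.545 (0.515 to 0.576) in the control, 0.283 (0.261 to 0.306) in si-hnRNPK, 0.424 (0.404 to 0.446) in the LBCS-labelled library and 0.324 (0.307 to 0.343) in si-PTBP1. All 3 knockdown libraries were thus below the control, with a lower E2F2 in si-hnRNPK and a higher E2F1 in the other 2. In si-PTBP1 E2F2 was lower as well, at 88.3% of the control (83.4 to 93.5%). The ratio of E2F3 to E2F1 was 0.433 in the control and 0.451 in si-hnRNPK, with overlapping intervals (0.408 to 0.460 and 0.420 to 0.484).

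The repressor E2F4 differed little between si-hnRNPK and the control. It was at 107.6 CPM in the control, 106.3 CPM in si-hnRNPK, 101.3 CPM in the LBCS-labelled library and 79.9 CPM in si-PTBP1. Its si-hnRNPK level was 98.8% of the control (95.4 to 102.4%), a change of −0.02 that turns to 0.09 under median-of-ratios scaling. The low library for E2F4 was si-PTBP1, at 74.3% of the control (71.5 to 77.2%), and 93.4% of all genes had a higher change there.

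E2F5, its relative, was at 15.2, 13.6, 14.5 and 18.96 CPM in the control, si-hnRNPK, the LBCS-labelled library and si-PTBP1. It was highest in si-PTBP1, at 125.1% of the control (114.5 to 136.8%), where E2F4 was lowest. The ratio of E2F5 to E2F4 per length was accordingly 0.0851 (0.0794 to 0.0912) in the control and 0.143 (0.134 to 0.153) in si-PTBP1. E2F5 shares exon sequence with RBIS on the opposite strand, which was at 24.2 to 32.8 CPM, and without knowledge of the strand used in counting the reads of both genes cannot be told apart.

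Both atypical repressors were called lower in si-hnRNPK. E2F8 was at 17.3 CPM in the control, 5.91 CPM in si-hnRNPK, 14.4 CPM in the LBCS-labelled library and 17.2 CPM in si-PTBP1. This was the largest change of the 10 genes in any of the 3 comparisons, −1.40 on the log2(CPM + 1) scale, with 34.2% of the control level (30.1 to 38.8%, from 321 and 1061 reads). Only 0.739% of all genes compared had a lower value. In the LBCS-labelled library E2F8 was at 83.2% of the control (76.2 to 90.8%).

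E2F7 was at 38.3 CPM in the control, 17.9 CPM in si-hnRNPK, 37.3 CPM in the LBCS-labelled library and 33.8 CPM in si-PTBP1. Again the si-hnRNPK library stood alone below the others, at 46.6% of the control (43.2 to 50.3%), a change of −1.06. This change lies close to the threshold of 1 and falls short of it with median-of-ratios scaling (−0.95) and also when the other 3 libraries together serve as reference (−0.99). E2F8 was lower by more than E2F7, since the ratio of E2F8 to E2F7 per length was 0.687 (0.638 to 0.738) in the control and 0.503 (0.442 to 0.572) in si-hnRNPK.

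Set beside the activator E2F1 in the same library, E2F7 was at 0.411 per length (0.388 to 0.435) in the control, 0.240 (0.221 to 0.260) in si-hnRNPK, 0.317 (0.301 to 0.334) in the LBCS-labelled library and 0.244 (0.230 to 0.259) in si-PTBP1. The ratio was therefore about as low in si-PTBP1, where E2F1 was high, as in si-hnRNPK, where E2F7 was low. In si-PTBP1 E2F7 was also below the control, at 88.1% (82.9 to 93.6%).

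Summed per length, the 7 E2F genes came to 72.1 CPM per kb in the control, 56.7 in si-hnRNPK, 73.0 in the LBCS-labelled library and 71.5 in si-PTBP1. The share of E2F7 and E2F8 in that sum was 14.2% in the control and 7.52% in si-hnRNPK, while it was 12.9% and 13.3% in the other 2 libraries. The repressors E2F4 and E2F5 made up 45.2% in the control, 56.3% in si-hnRNPK, 42.1% in the LBCS-labelled library and 35.7% in si-PTBP1. The activators E2F1, E2F2 and E2F3 made up 40.6%, 36.2%, 45.0% and 51.1% in the same order. The mixture therefore leaned to E2F4 and E2F5 in si-hnRNPK and to the activators in si-PTBP1, at nearly the same total as the control in the latter.

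**Figure D3:**
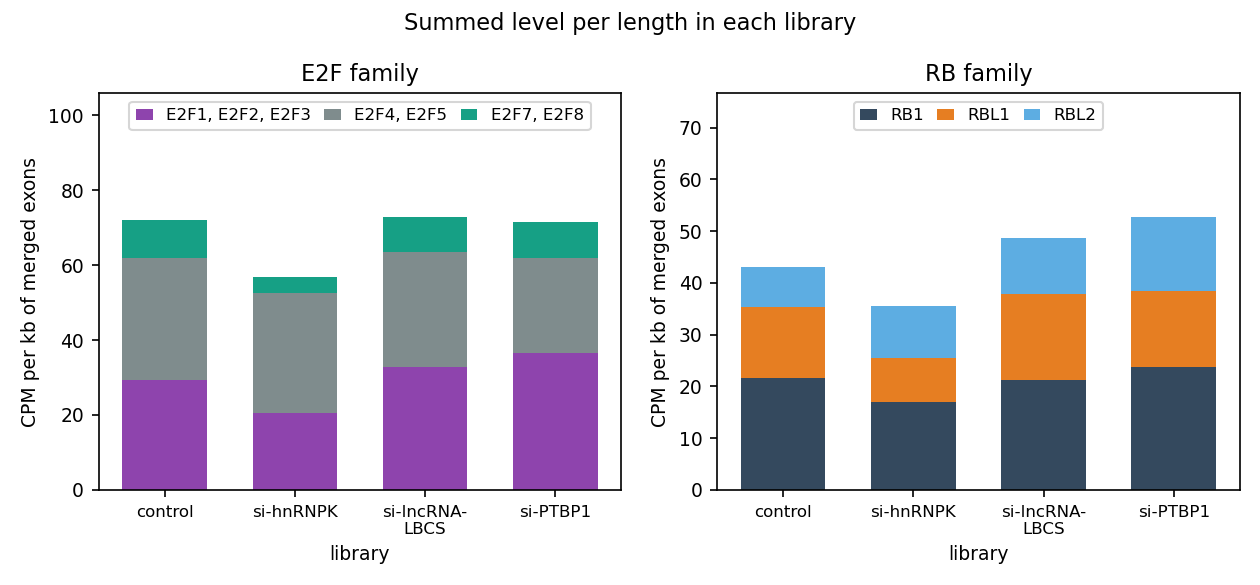
Summed CPM per kb of merged exons in each library, split into activators (E2F1, E2F2, E2F3), repressors (E2F4, E2F5) and atypical repressors (E2F7, E2F8) on the left, and into RB1, RBL1 and RBL2 on the right. The part of E2F7 and E2F8 is 10.3 CPM per kb in the control and 4.26 in si-hnRNPK, and the part of RBL2 grows from 7.86 in the control to 14.4 in si-PTBP1.

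RB1, the retinoblastoma tumour suppressor itself, had 140.0 CPM in the control, 109.5 CPM in si-hnRNPK, 137.6 CPM in the LBCS-labelled library and 152.7 CPM in si-PTBP1. It was lowest in si-hnRNPK, at 78.2% of the control (75.6 to 80.8%). In si-PTBP1 it was at 109.0% (105.8 to 112.4%), a change of 0.12 that becomes −0.00139 under median-of-ratios scaling, so that no direction is given.

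RBL1 encodes p107, which accumulates in cycling cells. It was at 80.6 CPM in the control, 50.8 CPM in si-hnRNPK, 98.0 CPM in the LBCS-labelled library and 87.9 CPM in si-PTBP1. The si-hnRNPK library was again below the rest, at 63.0% of the control (60.1 to 66.0%), which passed 1.5-fold but not 2-fold with a change of −0.66. In the LBCS-labelled library it was at 121.5% (117.2 to 126.1%), and its change of 0.12 in si-PTBP1 also turned, to −0.00109, under the scaling.

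RBL2 encodes p130, the form that prevails in resting cells. It was at 57.6 CPM in the control, 72.8 CPM in si-hnRNPK, 79.3 CPM in the LBCS-labelled library and 105.3 CPM in si-PTBP1. The control was the lowest of the 4 and si-PTBP1 stood well above the rest. In si-PTBP1 it reached 182.9% of the control (175.4 to 190.7%), a change of 0.86 that 4.69% of all genes exceeded, and 0.73 under median-of-ratios scaling.

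RBL2 was the only one of the 10 genes above the control in si-hnRNPK with CPM, at 126.4% (120.8 to 132.3%). Because the control was the lowest library, this direction depends on the reference, and against the geometric mean of the other 3 libraries the change was −0.11. AKTIP overlaps exons of RBL2 on the opposite strand. AKTIP was at 12.3 CPM in the control, 6.72 CPM in si-hnRNPK, 14.9 CPM in the LBCS-labelled library and 15.4 CPM in si-PTBP1, and in the shared exons its reads and those of RBL2 cannot be told apart.

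The balance of RBL1 to RBL2 transcripts was below that of the control in all 3 knockdown libraries, beyond counting error. The 3 comparisons share that control library, in which RBL2 was at its lowest. The ratio of RBL1 to RBL2 per length was 1.72 (1.65 to 1.80) in the control, 0.858 (0.817 to 0.901) in si-hnRNPK, 1.52 (1.47 to 1.57) in the LBCS-labelled library and 1.03 (0.989 to 1.07) in si-PTBP1. With merged exons as length RBL1 thus led in the control and in the LBCS-labelled library, RBL2 led in si-hnRNPK, and the interval in si-PTBP1 included equality. Which of the pair leads depends on the length used, since with the longest transcript as length RBL1 was at 15.5 and RBL2 at 21.5 CPM per kb in si-PTBP1, so that RBL2 led there too, while the leading gene in the other 3 libraries did not change. RB1 kept the largest share of the RB family sum in all 4 libraries, from 43.9% in the LBCS-labelled library to 50.3% in the control, whereas the share of RBL2 was 18.2% in the control, 28.1% in si-hnRNPK, 22.3% in the LBCS-labelled library and 27.2% in si-PTBP1.

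The siRNAs were compared with the 10 transcripts because an siRNA can also act on a transcript through its seed. The 4 siRNAs whose seed matches a member are printed here, sense strand 5′ to 3′, with the 7 bases that guide bases 2 to 8 pair with in capitals.
si-hnRNPK siRNA 1: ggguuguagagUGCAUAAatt
si-hnRNPK siRNA 2: gccuccaucuaGAAGAGAutt
si-lncRNA-LBCS siRNA 2: ggugguagucaACACAAAutt
si-PTBP1 siRNA 2: cccucauugacCUGCACAatt

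No siRNA matched a member over its 19 paired bases. The seed of the second si-hnRNPK siRNA had 2 matches in the longest annotated 3′ untranslated region of E2F7 (2891 bases), which was lower in that library, and 17.6% of 19145 genes held at least 1. E2F2 and E2F8, also lower there, held none for either si-hnRNPK siRNA. The seed of the first si-hnRNPK siRNA matched E2F3 once, as did 9.58% of genes. E2F3 also held 2 matches to the second si-lncRNA-LBCS siRNA (16.4% of genes) and 1 to the second si-PTBP1 siRNA (13.6%), and E2F2 held 1 to the latter. The part of these matches in the levels was not tested.

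Of the dimerisation partners of the E2F proteins other than E2F7 and E2F8, and the further family member E2F6, none was called in any comparison. TFDP1, which encodes the dimerisation partner DP1, was at 155.3, 117.1, 132.5 and 106.5 CPM in the control, si-hnRNPK, the LBCS-labelled library and si-PTBP1. Its paralogue TFDP2 was at 75.5, 92.8, 94.2 and 96.6 CPM. TFDP1 was below and TFDP2 above the control in all 3 knockdown libraries, with changes from −0.54 to 0.35. E2F6, a repressor that works with polycomb proteins, lay between 21.5 and 26.8 CPM.

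The MuvB proteins join p130 and E2F4 in the repressive DREAM complex, and join MYBL2 and FOXM1 to activate mitotic genes. The median change of 7 such genes compared in si-hnRNPK was −0.57. Of these, 3 (42.9%) were called lower and none higher, beside 3.93% called lower over all genes. They were FOXM1, the mitotic activator, at 102.1 CPM in the control and 29.5 CPM in si-hnRNPK (−1.76), the MuvB subunit LIN9 at 22.8 and 10.5 CPM (−1.06) and MYBL2 at 39.8 and 18.6 CPM (−1.05). As with E2F7, the changes of LIN9 and MYBL2 fell short of 1 under median-of-ratios scaling, at −0.95 each. None of the 7 was called in the other 2 comparisons.

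Of 13 cyclins, kinases and kinase inhibitors that act on the RB proteins, 3 (23.1%) were called lower in si-hnRNPK and none higher (median −0.28). Over all genes 3.93% were called lower. CDKN2A and CDKN2B, also on the list, are not among the 13. CCND1, cyclin D1, which starts the phosphorylation of RB proteins, was at 1187 CPM in the control and 295.2 CPM in si-hnRNPK, a change of −2.004. CDKN2C, which encodes the CDK4 and CDK6 inhibitor p18, went from 61.3 CPM in the control to 24.3 CPM in si-hnRNPK (−1.30), and CCNE2, cyclin E2, from 36.9 to 15.2 CPM (−1.22). None was called in the LBCS-labelled library, where CCND1 was at 678.4 CPM, a change of −0.81 that passed 1.5-fold. In si-PTBP1 CDKN1C, the inhibitor p57, was the 1 gene called (7.69% of the 13, beside 2.92% called higher over all genes). It was at 2.79 CPM in the control and 7.35 CPM in si-PTBP1, and it is named after its value was seen.

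Of 12 chromatin partners and phosphatase subunits of the RB proteins, 1 (8.33%) was called lower in si-hnRNPK, beside 3.93% of all genes. None was called in the other comparisons. The gene called was SUV39H1, a histone methyltransferase, also named after its value was seen. It was at 9.97 CPM in the control and 3.44 CPM in si-hnRNPK. Of 8 genes for the ubiquitin machinery that acts on E2F and RB proteins, CCNF (cyclin F, −1.11) and CDC20 (−1.11) were called lower in si-hnRNPK. No gene of that list was called in the other 2 comparisons.

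Of 57 G1/S genes known as E2F targets, 20 (35.1%) were called lower in si-hnRNPK and none higher, beside the 3.93% called lower over all genes. With median-of-ratios scaling 14 were called lower. This list, like the other gene lists, was chosen with earlier results of these data known, so the shares are descriptions only. A change below 0 was found for 56 of the 57, against 58.4% of all genes, and the median was −0.83 (−0.72 with the scaling). The 1 target above 0 was UNG, a DNA repair enzyme, named after its value was seen, at 0.10. The leading genes were TYMS (thymidylate synthase) at 39.1 CPM in the control and 10.2 CPM in si-hnRNPK, the helicase subunit MCM4 at 436.0 and 136.7 CPM, the checkpoint adaptor CLSPN at 79.3 and 24.5 CPM and the helicase factor CDC45 at 61.0 and 20.3 CPM. No G1/S target was called in the LBCS-labelled library or in si-PTBP1, where the medians were −0.13 and −0.17. With the scaling these medians were −0.12 and −0.30. Over all genes the medians, without the scaling, were −0.01 and 0.12.

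Of 40 G2/M genes known as DREAM targets, 27 (67.5%) were called lower in si-hnRNPK, beside 3.93% of all genes. All 40 had a change below 0, against 58.4% of all genes. Their median was −1.17 (−1.06 under median-of-ratios scaling), beside −0.11 over all genes. The leading genes were the proliferation marker MKI67 (−2.65), the cytokinesis gene CEP55 (−2.06), the mitotic kinase PLK1 (−1.80) and the spindle gene DLGAP5 (−1.78). In the LBCS-labelled library MKI67 alone was called lower (−1.23), beside 1.01% of all genes, and the median was −0.01. In si-PTBP1 none was called, and 38 of the 40 were below 0, against 36.5% of all genes. The median there was −0.28 (−0.40 with the scaling), beside 0.12 over all genes. CCNE1, CCNE2, MYBL2, FOXM1 and CDC20 each stand in 2 of these lists.

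**Figure D4:**
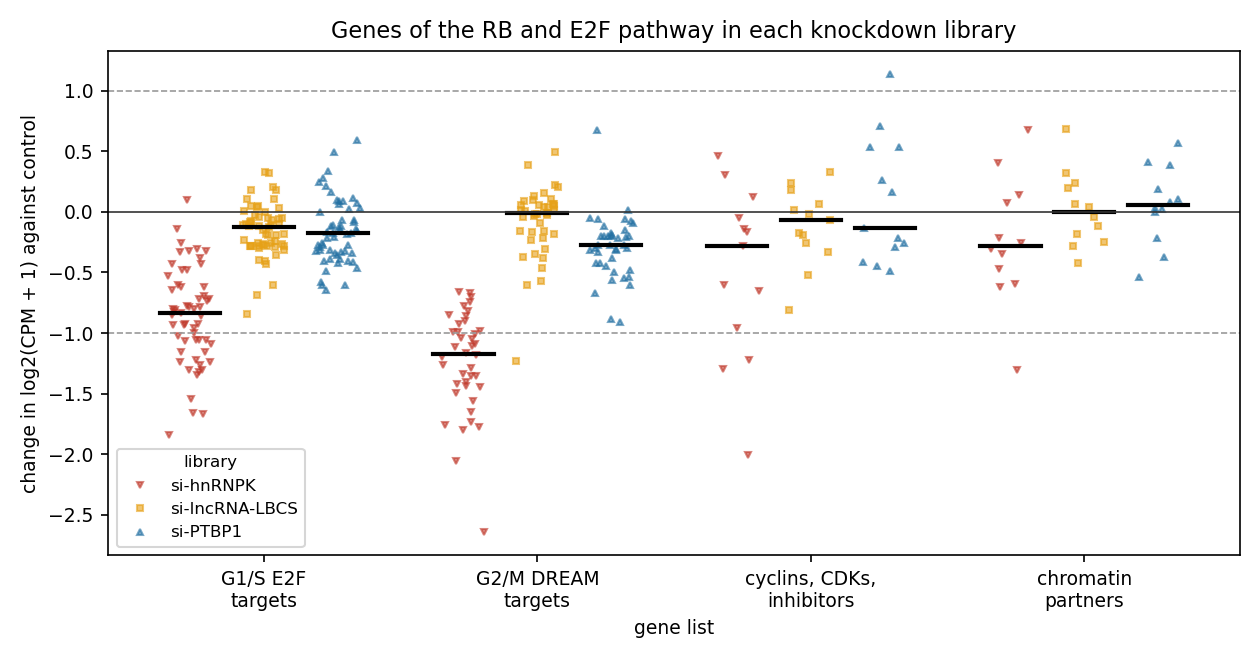
Change in log2(CPM + 1) against the control for the genes of 4 lists in the 3 knockdown libraries, 1 point per gene, with black bars at the medians and dashed lines at 1 and −1. The si-hnRNPK medians of the G1/S and G2/M targets lie at −0.83 and −1.17, while those of the other 2 libraries lie between −0.28 and −0.01.

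Of 11 apoptosis genes known as E2F1 targets, 1 was called higher and 1 lower in si-hnRNPK, beside 3.55% and 3.93% of all genes. The median of the list was −0.15, beside −0.11 over all genes. BBC3, which encodes the cell death protein PUMA, was at 5.64 CPM in the control and 20.6 CPM in si-hnRNPK (1.71), and TP53INP1, named after its value was seen, at 1.78 and 0.239 CPM. In si-PTBP1 BNIP3 was called lower (−1.26) and none higher, beside 0.613% and 2.92% of all genes. There 6 of the 11 were above 0, and their median was 0.01, beside 0.12 over all genes.

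Another gene group moved with the low E2F2, E2F7 and E2F8 in si-hnRNPK. Of 26 interferon-stimulated genes compared there, 24 (92.3%) were called higher, beside 3.55% of all genes, with a median change of 2.93. Their summed level was 426.2 CPM in the control and 3154 CPM in si-hnRNPK. The sum was 381.9 CPM in the LBCS-labelled library and 361.0 CPM in si-PTBP1. Its part in the levels of the E2F and RB genes was not tested.

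Over the 4 libraries, 3 of the 10 genes spanned at least 1 on the log2(CPM + 1) scale, namely E2F2 (1.22), E2F7 (1.06) and E2F8 (1.40). For each, the closest profiles among 13693 genes were ranked by the root mean square difference of centred log2(CPM + 1) over the 4 libraries. For E2F2 they were BLM, a DNA helicase (0.018), CCDC77 (0.027) and CENPU, a kinetochore gene (0.033). For E2F7 they were the histone gene H2AC21 (0.0096), the spindle checkpoint kinase BUB1B (0.016) and KIF24 (0.023). For E2F8 they were LMO7 (0.030), AMH (0.047) and the DNA ligase LIG1 (0.048). With 4 points per gene such likeness is a description only.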

How the data were processed

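RNA of UM-UC-3 cells was sequenced as 100-base paired-end reads, with 1 library in each of 4 conditions. The authors deposited 1 table of CPM, that is read counts per gene divided by the library's total on a common scale, for each library. The genome build was hg19 per the submitters' processing notes, while the aligner, the counter, its use of strand and the annotation are not given in the sources used here. The reads of each gene were recovered from the CPM steps (tolerance 0.1 read), and genes without reads were set to 0.

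Changes are differences of log2(CPM + 1) between a knockdown and the control library, for genes at 1 CPM or more in either. This scale understates changes at low levels. Read ratios have 95% exact Clopper-Pearson intervals and levels per length exact Poisson ones. PCR reads carry no molecular identifiers, so intervals cover counting error only. Exon lengths and overlaps came from GENCODE 29 (GRCh38), matched by Ensembl identifier. Promoter sequences are RefSeq's (GRCh38.p14).

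The members and gene lists were chosen with earlier results of these data known. All 10 members are named. Of a list of up to 8 genes any may be named, and of a longer list up to 4 genes per direction with the largest called change at 10 CPM or more, while other genes are marked as named after their values were seen. For each member spanning 1 or more, the 3 most alike genes are named. E2F3 and E2F4 have processed pseudogenes that may share reads with them. The alternatives were another pseudocount (0.1), no filter, a filter of 5 CPM, median-of-ratios scaling, another reference, a 1.5-fold threshold, a binomial test of the reads and another gene length. Protein identity was planned and not run. Analyses used Python 3.11.15, pandas 2.3.3 and scipy 1.17.1, and the steps were tested on simulated data.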

Additional observations from a re-analysis of the deposited data

How the results depend on the processing

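All 30 changes of the members, 10 genes in 3 comparisons, moved by less than their counting interval with a pseudocount of 0.1, with no filter and with a filter of 5 CPM, whereas 15 moved by more under median-of-ratios scaling and 19 with the geometric mean of the other 3 libraries as reference. The median change of the members in si-hnRNPK was −0.22 with the scaling and −0.50 with that reference. In si-PTBP1 it was −0.00124 with the scaling and 0.28 with that reference, and in the LBCS-labelled library it was 0.14 with that reference. The scaling and the reference are what changed in these settings, and the cause was not tested further. With that reference the sign turned for E2F4 and RBL2 in si-hnRNPK, for E2F2, E2F4, E2F7, E2F8 and RB1 in the LBCS-labelled library and for E2F2, E2F7 and E2F8 in si-PTBP1. The number of members called lower in si-hnRNPK was 2 under either setting, without E2F7, and 4 at 1.5-fold, with RBL1, and the number higher in si-PTBP1 was 1 at 1.5-fold. In the control library the order of the levels per length kept 8 of 10 ranks with the longest transcript as length, with E2F2 and RBL2 exchanged. The exchanged pair was E2F1 and RBL2 in si-hnRNPK and RBL1 and RBL2 in si-PTBP1, and no rank changed in the LBCS-labelled library.

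Over all genes, the calls in si-hnRNPK were 486 higher and 537 lower, 790 and 995 with the smaller pseudocount, 610 and 374 with the scaling, 317 and 356 with the other reference and 1352 and 2165 at 1.5-fold. In the LBCS-labelled library they were 51 and 136, 165 and 353 with the smaller pseudocount, 6 and 97 with the other reference and 559 and 774 at 1.5-fold. In si-PTBP1 they were 404 and 85, 793 and 173 with the smaller pseudocount, 256 and 132 with the scaling, 234 and 68 with the other reference and 1673 and 432 at 1.5-fold. The 20 G1/S targets called lower in si-hnRNPK were 14 with the scaling, 16 with the other reference and 44 at 1.5-fold. An exact binomial test of the recovered reads, which compares 2 libraries and not conditions, left 10870 genes of si-hnRNPK, 9478 of the LBCS-labelled library and 10182 of si-PTBP1 at q values (Benjamini-Hochberg) up to 0.05, with 9, 5 and 9 members among them, and removed no 2-fold call. No paired analysis was possible because each condition has 1 library, for which reason no library could be left out either. At these depths counting error is small beside the differences named, but the spread between cultures is unknown.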
